A study of Mus musculus with 6 samples.

Results

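The genes described here are 38 mouse genes tied to hereditary hearing loss, most of them known for roles in hair cells, junctions, transcriptional control or the cytoskeleton. They were chosen by name and matched by the single gene symbol that the array platform gives a probe set, with the brightest probe set over all 6 arrays taken for each gene. A match was found for 34 of the 38, out of 18193 genes with such a probe set. Cib2, Loxhd1, Ptprq and Grxcr1 were not analysed here. RNA came from microdissected cochlear lateral wall, the outer wall of the cochlear duct with the stria vascularis and the spiral ligament. Mice of the CBA/CaJ strain at an old age of 1.5 years were set against young adults at 1 to 3 months, with 3 Affymetrix arrays per age. The mice came from an in-house colony kept at low noise, and the study used both sexes. No genotype or treatment other than age separated the groups. The labels do not say whether a sample was 1 animal or a pool. The p-values therefore set a difference against the spread between these samples, which limma estimates with information shared across probe sets. All values are log2 signals, differences are old minus young, means carry ± SD with n = 3 arrays, and differences carry ± the standard error from limma.

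Hair cells turn sound into electrical signals with a bundle of actin-filled stereocilia. Myosin motors build and maintain the bundle, cadherin tip links join neighbouring stereocilia, and pulling on a tip link opens the transduction channel. Many genes of this machinery were found through inherited deafness, several of them in Usher syndrome, which also affects vision. Another set of deafness genes encodes transcription factors, junction proteins, proteases and parts of the cytoskeleton that many cell types use. The lateral wall has no hair cells. Its marginal, intermediate and basal cells and its fibrocytes recycle potassium and keep the endocochlear potential, which drives the current through hair cells.

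Of the 34 measured genes, 21 had a signal above the array median on all 6 arrays, 4 on some arrays and 9 on none. The 21 make 61.8% of the 34, against 60.9% of all 18193 genes at 1 probe set per gene. Genes of the actin cytoskeleton, of junctions and of transcriptional control lay mostly above the median. The 9 below it were Myo7a, Myo3a, Cdh23, Pcdh15, Clrn1, Tmc1, Espn, Gipc3 and Pou4f3, from hair bundle, transduction, sorting and transcription factor roles. Other hair bundle and transduction genes, Myo6, Myo15, Ush1c, Whrn, Tmie, Rdx and Triobp, lay above it on all arrays. With age, 1 of the 34 passed the test. Crym, which encodes a thyroid hormone-binding protein, was lower in old tissue by 1.14 ± 0.14 (limma adjusted p = 0.00471).

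As examples from each side of the array median, 4 promoter windows picked by name are printed. Each holds the 250 bases upstream of the gene start from RefSeq on build GRCm38.p6. The bases run 5′ to 3′ on the gene's strand, with each CpG dinucleotide in capitals. Actg1 (chr11:120348496-120348745, minus strand) and Gata3 (chr2:9878601-9878850, minus strand) had signals above the array median. Pcdh15 (chr10:73821617-73821866, plus strand) and Tmc1 (chr19:20954203-20954452, minus strand) had signals below it on all arrays.
Actg1: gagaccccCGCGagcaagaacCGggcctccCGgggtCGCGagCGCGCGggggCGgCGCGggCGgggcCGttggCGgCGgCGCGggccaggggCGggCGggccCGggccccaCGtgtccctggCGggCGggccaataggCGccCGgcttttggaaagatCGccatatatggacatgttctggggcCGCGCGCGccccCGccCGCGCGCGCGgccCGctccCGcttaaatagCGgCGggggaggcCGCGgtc
Gata3: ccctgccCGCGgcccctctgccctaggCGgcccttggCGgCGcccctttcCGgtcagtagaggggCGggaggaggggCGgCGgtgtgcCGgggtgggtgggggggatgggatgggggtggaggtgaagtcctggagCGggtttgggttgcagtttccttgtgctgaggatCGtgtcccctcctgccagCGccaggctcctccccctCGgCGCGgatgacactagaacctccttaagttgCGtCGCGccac
Pcdh15: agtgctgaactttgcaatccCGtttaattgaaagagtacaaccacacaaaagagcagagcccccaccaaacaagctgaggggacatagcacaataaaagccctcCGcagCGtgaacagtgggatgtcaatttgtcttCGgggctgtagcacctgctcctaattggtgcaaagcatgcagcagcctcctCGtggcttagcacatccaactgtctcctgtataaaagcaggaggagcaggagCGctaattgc
Tmc1: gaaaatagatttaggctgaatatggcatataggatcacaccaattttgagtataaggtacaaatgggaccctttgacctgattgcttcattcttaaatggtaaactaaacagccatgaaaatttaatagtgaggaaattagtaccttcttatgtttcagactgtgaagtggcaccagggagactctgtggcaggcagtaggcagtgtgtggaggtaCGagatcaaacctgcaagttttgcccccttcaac

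The Actg1 window held 43 CpG, the Gata3 window 19, the Pcdh15 window 6 and the Tmc1 window 1. A window was found for 31 of the 38 genes, and 29 of these were also measured. Where a gene had several windows, the one with the most CpG was counted. By that count, 43 in Actg1 was the highest of the 29 genes, and 1 in Tmc1, shared with Myo15, the lowest. The 19 genes above the array median on all arrays had a median of 19 CpG, and 14 of them (73.7%) held more than 10. The 10 that were not above the median on every array had a median of 6 CpG, and 4 of them (40.0%) held more than 10. Over all genes, 76.7% of those above the median and 31.6% of the others held more than 10 CpG, the same order as among the deafness genes. Tmie, Msrb3 and Eya4 were CpG-rich, with 33, 32 and 35. Hgf, Ush1c and Myo15 had signals above the median with 5, 7 and 1 CpG, and Gipc3 and Lhfpl5 were CpG-rich at 22 and 24 without being above the median on every array.

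**Figure D1:**
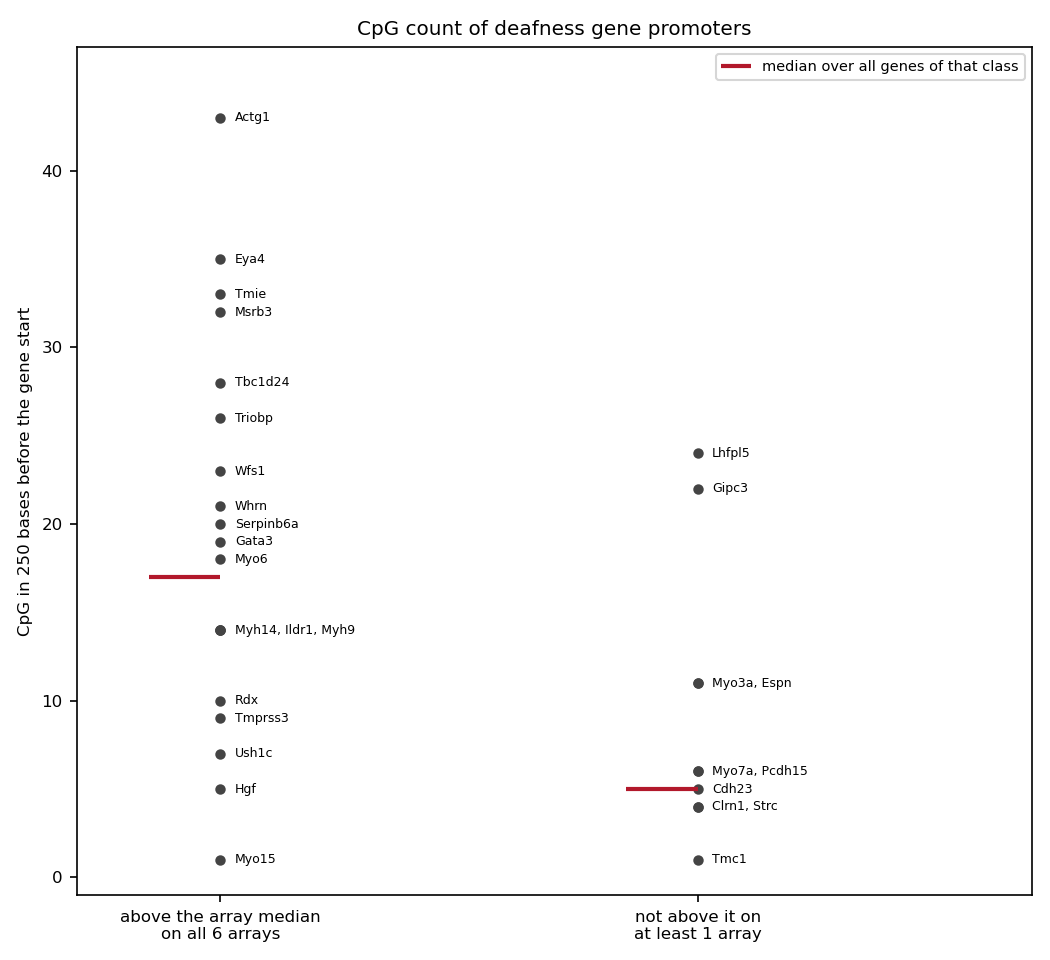
CpG count in the 250 bases before the gene start (vertical axis) for 19 deafness genes above the array median on all 6 arrays (left) and 10 that were not (right), 1 point per gene, with the median of all genes of that class as a red line (17 and 5). The points spread from 1 to 43 on the left and from 1 to 24 on the right.

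Array medians over all probe sets lay between 6.26 and 6.30. On single arrays, 22, 25 and 22 of the 34 genes were above the median in old tissue and 22, 24 and 24 in young tissue. A signal depends on the binding of each probe set, so a position below the median does not show that a gene is silent, and the order of signals between genes is not an order of RNA amounts. The young replicate 2 array stood apart in Xist, a noncoding RNA that coats the silenced X in female cells, with 6.06 where the other 5 arrays had 11.95 to 12.65. The excess of 3′ over 5′ signal in the Gapdh control probe sets, a sign of RNA integrity and labelling, was 1.26 to 1.45 on old arrays and 1.07 to 1.25 on young arrays. Its part in the results was not tested.

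The tissue label was set against marker lists. All 20 stria and spiral ligament markers lay above the median on every array. Their list mean was 12.49 to 12.53 in old and 12.38 to 12.46 in young tissue. At a limma adjusted p of 0.05, 0 of the 20 passed (4 at an unadjusted p under 0.05). Kcnj16 came closest, with a difference of 0.43 ± 0.10 (limma adjusted p = 0.0515), and it passed under 8 of 15 other settings. Next was Esrrb at 0.39 ± 0.12 (limma adjusted p = 0.101). Of 12 measured hair cell markers, 7 were below the median on all arrays and 0 passed (1 at an unadjusted limma p under 0.05). Among those below were Atoh1, the factor that specifies hair cells (4.49 ± 0.14 in old, 4.33 ± 0.16 in young), Slc26a5, the outer hair cell motor prestin (4.44 ± 0.11 and 4.40 ± 0.22), and Chrna9, an outer hair cell acetylcholine receptor subunit (4.81 ± 0.15 and 4.46 ± 0.28). The 3 hair cell markers above the median on every array were Fbxo2, Calb2 and Pvalb, which are also made by other cells of the inner ear. In whole tissue, fewer cells of a type and less RNA per cell cannot be told apart.

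**Figure D2:**
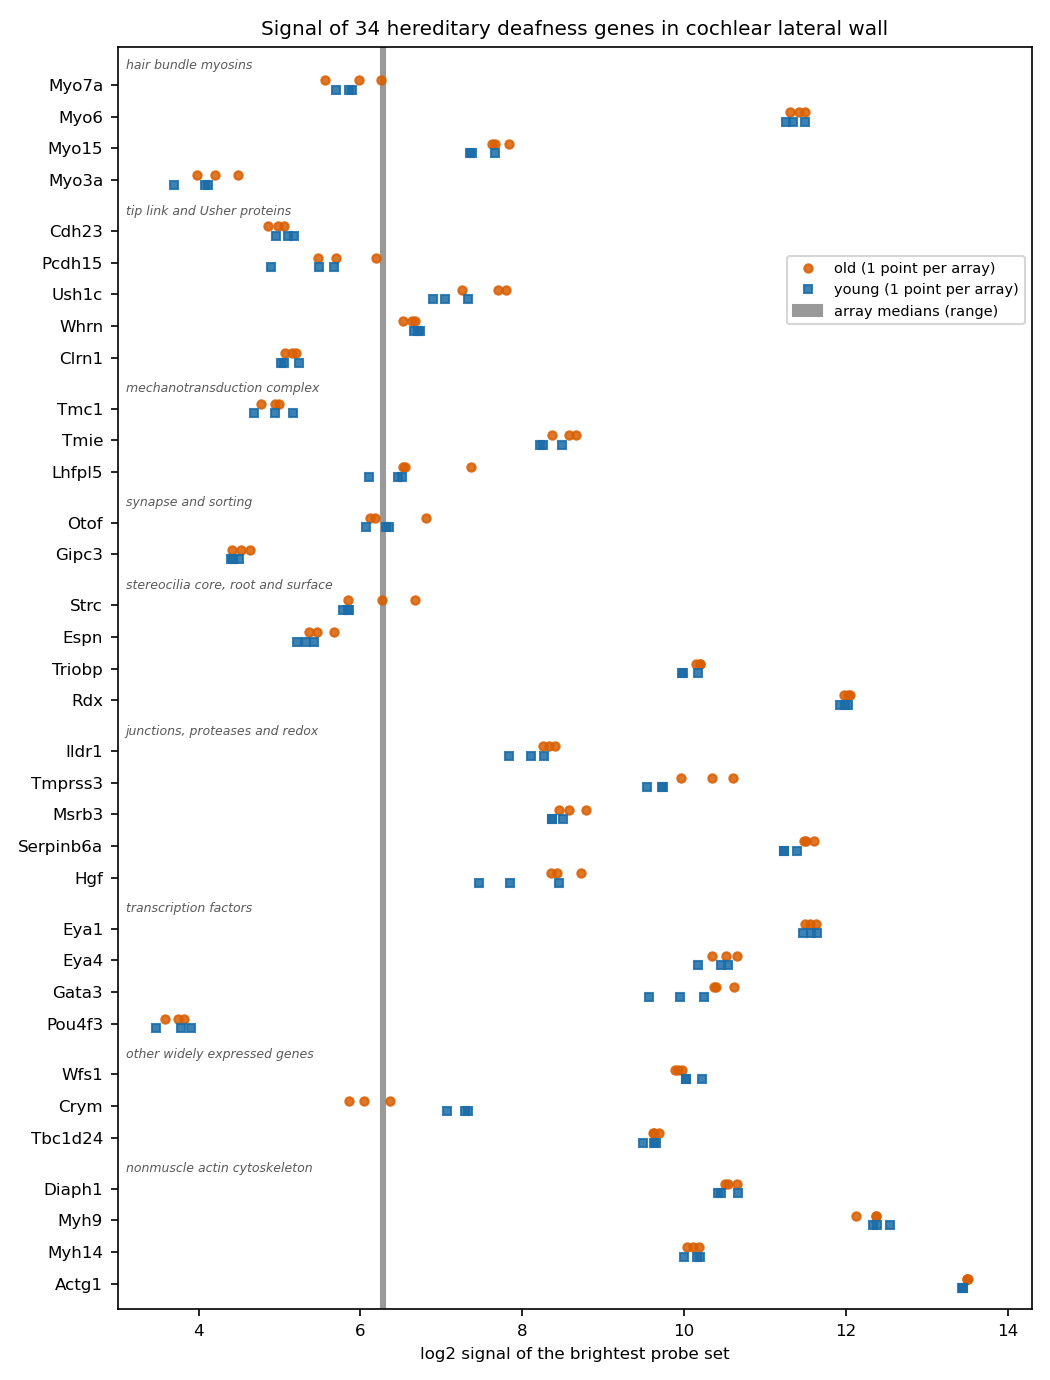
Log2 signal of the brightest probe set (horizontal axis) for 34 deafness genes grouped by role, 1 point per array, old arrays as orange circles above young arrays as blue squares, with the array medians as a grey band. Crym is the gene whose old points (5.86 to 6.37) sit far to the left of its young points (7.07 to 7.33).

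The hair bundle myosins split by signal. Myo6, a motor that walks to the base of stereocilia and also serves endocytosis in many epithelia, had 11.31, 11.42 and 11.49 in old tissue against 11.49, 11.34 and 11.26 in young tissue. Its groups overlapped, and the difference was 0.04 ± 0.09 with a 95% interval of -0.17 to 0.25. Myo15, which carries cargo to stereocilia tips, averaged 7.71 ± 0.11 in old and 7.47 ± 0.17 in young tissue (difference 0.24 ± 0.11, limma adjusted p = 0.261). Myo7a, the motor at the upper end of the tip link, stayed below the median on all arrays, at 5.93 ± 0.35 in old and 5.82 ± 0.11 in young tissue. Myo3a, which carries espin to the tips, did so too, at 4.22 ± 0.26 and 3.96 ± 0.24.

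Among the tip link and Usher genes, both cadherins of the tip link lay below the median on every array. Cdh23, which forms its upper part, averaged 4.96 ± 0.10 in old and 5.08 ± 0.11 in young tissue. Pcdh15, which forms its lower part, had 5.48, 6.19 and 5.70 in old and 4.90, 5.67 and 5.49 in young tissue, with overlapping groups. Clrn1, the clarin-1 gene of Usher syndrome, averaged 5.14 ± 0.07 in old and 5.11 ± 0.12 in young tissue. Ush1c encodes harmonin, the scaffold that holds Cdh23, and lay above the median on all arrays. Its signals were 7.25, 7.80 and 7.70 in old tissue against 6.90, 7.05 and 7.33 in young tissue. The lowest old value fell below the highest young value, and the difference of 0.49 ± 0.16 did not pass (limma adjusted p = 0.133, 95% interval 0.12 to 0.86). Whrn, the whirlin scaffold of stereocilia tips, was the closest to the array median among the 21 genes above it on all 6 arrays, at 6.61 ± 0.07 in old and 6.70 ± 0.04 in young tissue, and its other 3 probe sets averaged 4.78, 4.12 and 3.78.

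The transduction genes differed in signal as well. Tmc1, a pore-forming subunit of the hair cell channel, averaged 4.90 ± 0.12 in old and 4.93 ± 0.24 in young tissue (difference -0.03 ± 0.13, 95% interval -0.32 to 0.26). Tmie, which joins the channel to the tip link, was above the median at 8.54 ± 0.15 in old and 8.32 ± 0.15 in young tissue (difference 0.21 ± 0.11, limma adjusted p = 0.341). Its probe set is marked by the platform as open to cross-hybridisation. Its other 2 probe sets averaged 7.82 and 5.04, with differences of 0.42 and 0.00. Lhfpl5, a membrane partner of the channel, had 6.55, 7.37 and 6.52 in old tissue against 6.11, 6.51 and 6.47 in young tissue. The groups did not overlap, though 6.52 in old and 6.51 in young tissue nearly touched, and the difference of 0.45 ± 0.22 did not pass (limma adjusted p = 0.320).

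Of the stereocilia genes, Rdx and Triobp were bright. Rdx encodes radixin, which ties membrane proteins to actin, and had 11.98, 12.03 and 12.05 in old against 11.93, 12.02 and 11.99 in young tissue. Its difference was 0.04 ± 0.07, with a 95% interval of -0.13 to 0.21. Triobp, which bundles actin in stereocilia rootlets, averaged 10.18 ± 0.03 in old and 10.05 ± 0.11 in young tissue. Espn, an actin bundler of the stereocilia core, averaged 5.50 ± 0.15 in old and 5.33 ± 0.11 in young tissue, below the median throughout. Strc, which encodes a protein that links stereocilia to each other and to the tectorial membrane, had 5.85, 6.67 and 6.27 in old and 5.79, 5.85 and 5.86 in young tissue (difference 0.43 ± 0.18, limma adjusted p = 0.228). Otof, the calcium sensor of the inner hair cell synapse, was above the median on 3 of the 6 arrays, with 6.12, 6.81 and 6.18 in old and 6.07, 6.35 and 6.31 in young tissue. Gipc3, a sorting adaptor, averaged 4.52 ± 0.12 in old and 4.44 ± 0.05 in young tissue.

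All 5 genes of the junction, protease and redox group were above the median on every array. All 5 had positive differences that did not pass. Of all genes above the median on every array, 62.1% had a positive difference. Tmprss3, a membrane serine protease, had 9.96, 10.61 and 10.34 in old tissue against 9.54, 9.74 and 9.73 in young tissue. Every old value exceeded every young value, and the difference of 0.63 ± 0.15, the largest among the genes that did not pass, came close to the threshold (limma adjusted p = 0.0553). It passed under 6 of 15 other settings, with adjusted p of 0.0179 to 0.182 over all of them, and stood at 0.48 ± 0.14 without old replicate 2, its highest array. The mean of 10 macrophage markers was 8.47 to 8.62 on old and 8.09 to 8.24 on young arrays, with 2 of the 10 past the test, and its part in the values of this group was not tested. Hgf, the growth factor that binds the Met receptor, had 8.72, 8.43 and 8.36 in old tissue against 7.46, 8.46 and 7.85 in young tissue. The young replicate 2 value lay within the old range, and the difference was 0.58 ± 0.22 (limma adjusted p = 0.198). Its other 2 probe sets had differences of 0.43 and 0.24.

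Serpinb6a, an intracellular protease inhibitor, had 11.61, 11.51 and 11.48 in old tissue against 11.24, 11.39 and 11.24 in young tissue. The groups did not overlap, and the difference was 0.24 ± 0.08 (limma adjusted p = 0.149). Near copies of this gene exist in the mouse and can share probe signal. Ildr1, a protein of tricellular junctions, averaged 8.33 ± 0.07 in old and 8.07 ± 0.22 in young tissue (limma adjusted p = 0.270). Msrb3, which repairs oxidised methionine, averaged 8.61 ± 0.17 in old and 8.41 ± 0.08 in young tissue (limma adjusted p = 0.347).

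The transcription factors Eya1, Eya4 and Gata3 had signals far above the median. Eya1, a coactivator with phosphatase activity that is needed to form the inner ear, had 11.63, 11.49 and 11.56 in old against 11.64, 11.47 and 11.57 in young tissue. The difference was 0.00 ± 0.08, with a 95% interval of -0.19 to 0.19. Eya4, its relative, had 10.35, 10.66 and 10.52 in old against 10.17, 10.46 and 10.54 in young tissue, a difference of 0.12 ± 0.12. Gata3, a zinc finger factor whose loss of 1 copy causes deafness in people, had 10.37, 10.62 and 10.40 in old tissue against 9.57, 10.24 and 9.95 in young tissue. The groups did not overlap, and the difference of 0.54 ± 0.16 did not pass (limma adjusted p = 0.0986). Pou4f3, the hair cell survival factor, averaged 3.71 ± 0.12 in old and 3.72 ± 0.22 in young tissue.

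The 4 genes of the nonmuscle actin cytoskeleton were bright and had differences of -0.14 to 0.06, each with a 95% interval inside -0.5 to 0.5. Actg1, which encodes gamma actin, had 13.50, 13.51 and 13.50 in old against 13.43, 13.45 and 13.45 in young tissue. Old values lay above young ones by 0.06 ± 0.07 (limma adjusted p = 0.744). Myh9, a heavy chain of nonmuscle myosin II, had 12.12, 12.37 and 12.37 in old against 12.39, 12.33 and 12.55 in young tissue. The probe sets of Actg1 and Myh9 are of a kind that the platform shares between transcripts, and the other 4 probe sets of Myh9 had differences of -0.45 to 0.09, none past the threshold. Diaph1, a formin that elongates actin filaments, had 10.51, 10.54 and 10.66 in old against 10.42, 10.46 and 10.67 in young tissue. A dimmer probe set of Diaph1 had 7.81, 8.27 and 8.37 in old against 7.62, 7.57 and 7.70 in young tissue, a difference of 0.52 ± 0.14 that did not pass (limma adjusted p = 0.0765). Myh14, another nonmuscle myosin II heavy chain, averaged 10.11 ± 0.08 in old and 10.12 ± 0.11 in young tissue.

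Crym encodes mu-crystallin, which binds thyroid hormone in the cytosol. Its signals were 5.86, 6.37 and 6.04 in old tissue against 7.29, 7.33 and 7.07 in young tissue. All 3 old values lay below all 3 young values, with 6.37 as the highest old and 7.07 as the lowest young one. The means were 6.09 ± 0.26 in old and 7.23 ± 0.14 in young tissue, a 2.20-fold lower signal in old (difference -1.14 ± 0.14, 95% interval -1.45 to -0.83). Markers of other cells were also lower in old tissue. The mean of 8 neutrophil markers was 6.41 to 7.13 on old and 7.69 to 8.23 on young arrays, with 7 of the 8 past the test, and that of 8 bone markers was 6.86 to 7.69 on old and 7.98 to 8.51 on young arrays, with 3 past it. The mean of 6 Schwann cell markers was 7.40 to 7.59 on old and 7.69 to 7.84 on young arrays, with 2 past it. Their part in the difference of Crym was not tested. Crym was above the array median on all 3 young arrays and on 1 of the 3 old ones. It passed under all 15 alternatives run, with differences of -1.28 to -1.03 and limma adjusted p of 0.00184 to 0.0251. It has 1 probe set on the array. Wfs1 and Tbc1d24, which were grouped with Crym, did not pass. Wfs1, the endoplasmic reticulum protein wolframin, averaged 9.93 ± 0.04 in old and 10.09 ± 0.12 in young tissue without overlap (difference -0.16 ± 0.09, limma adjusted p = 0.380). Tbc1d24, a vesicle trafficking regulator, averaged 9.64 ± 0.04 in old and 9.59 ± 0.09 in young tissue.

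**Figure D3:**
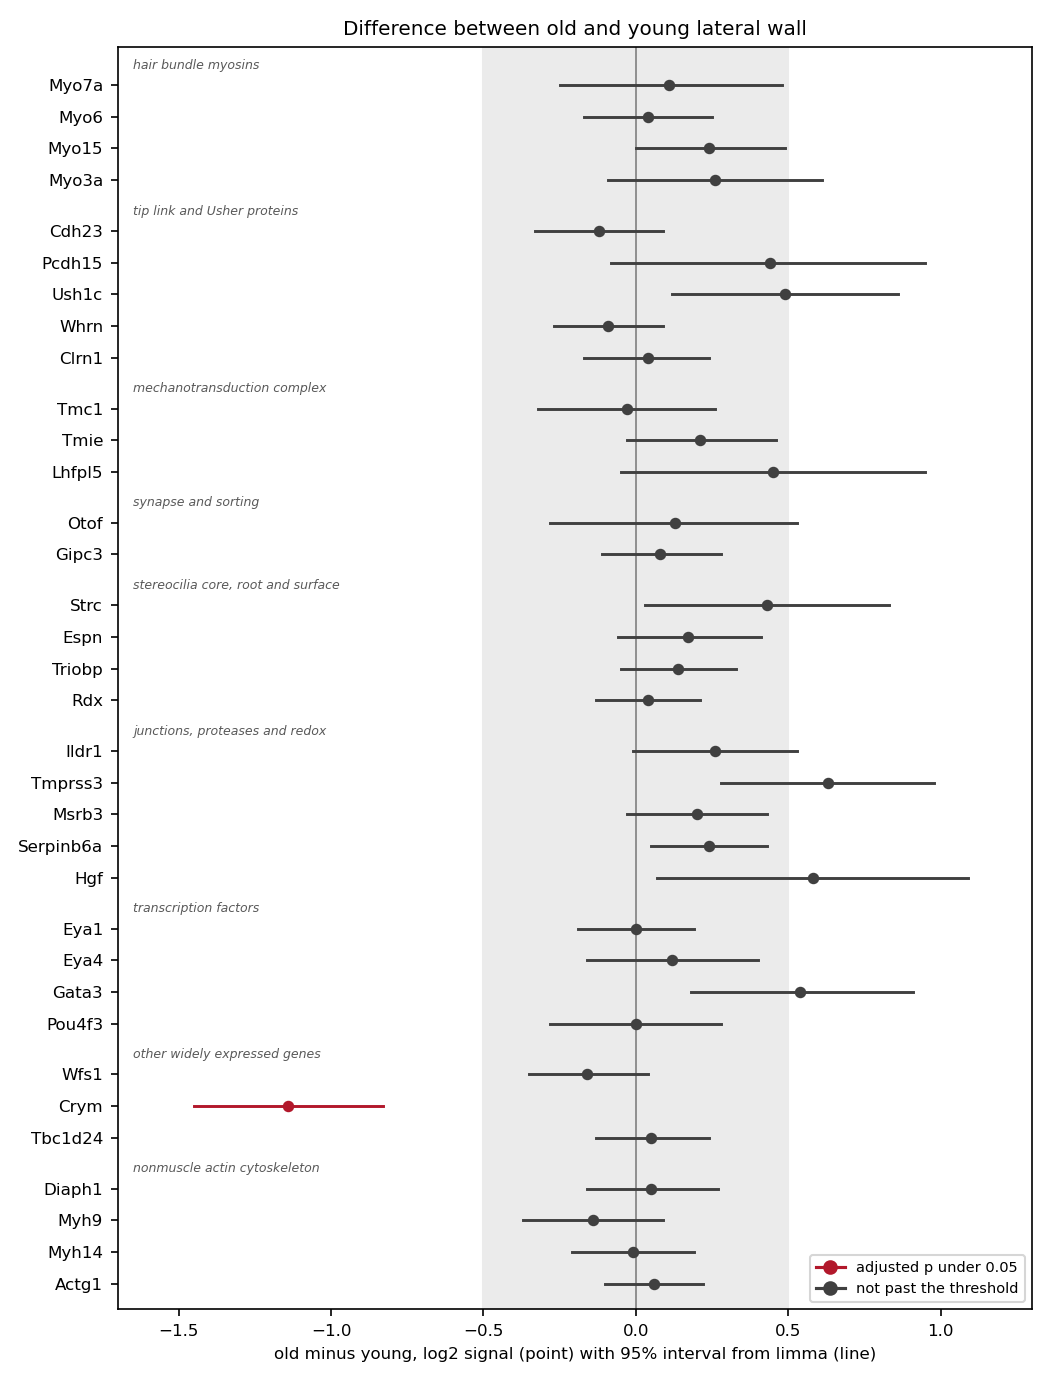
Difference in log2 signal, old minus young (horizontal axis), for 34 deafness genes grouped by role, with points for estimates, lines for 95% limma intervals and the range -0.5 to 0.5 shaded. Crym at -1.14 is the 1 gene past an adjusted p of 0.05, and 23 of the 34 intervals lie wholly inside the shaded range.

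The count for old against young tissue was 1 of 34 genes past a limma adjusted p of 0.05, or 2.94%, where 4.78% of the 18193 genes passed. In the lower direction the count was 1 of 34, against 2.33% of all genes, and in the higher direction 0 of 34, against 2.45%. At an unadjusted limma p under 0.05, 7 of 34 (20.6%) were reached, Crym, Gata3, Hgf, Serpinb6a, Strc, Tmprss3 and Ush1c, against 20.7% of all genes. Old values lay wholly above young values for 5 of the 34, against 17.0% of all genes, and wholly below for 2, against 9.70%. Each of these shares was near or below that of all genes, and Crym, at -1.14, was the single call. The median difference of the 34 was 0.12, with 25 positive, 8 negative and 1 at 0, and that of all genes was 0.03, with 57.9% positive. The 95% interval lay inside -0.5 to 0.5 for 23 of the 34 (67.6%) and for 81.4% of all genes. Of 30 further probe sets of the same genes, 0 passed the same limma threshold and 5 had an unadjusted p under 0.05.

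The count changed when the young replicate 2 array was left out. Then 3 of the 34 passed, against 8.35% of all genes. Gata3 reached 0.70 ± 0.14 and Hgf 0.85 ± 0.15 (limma adjusted p = 0.0251 and 0.0191), and Crym was at -1.09 ± 0.15 (limma adjusted p = 0.00923). Without young replicate 1, which had the lowest young value for both, Gata3 was at 0.37 ± 0.12 and Hgf at 0.35 ± 0.19 (limma adjusted p = 0.181 and 0.401). Young replicate 2 had the highest young value for both. Young replicate 2 differed from the other arrays in Xist, as given above, and the part of the sex of the animals in these values was not tested.

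The old replicate 2 array carried the highest signal of all 6 for 14 of the 34 genes, where it held the highest for 13.1% of all genes. Among the 3 old arrays it was the highest for 17 of the 34 and for 25.9% of all genes. Lhfpl5, Otof, Strc and Pcdh15 exceeded the mean of the other old arrays there by 0.83, 0.66, 0.61 and 0.60. A gap over 0.5 was seen for 4 of 34 genes (11.8%) and for 0.808% of all genes. The choice of these 4 was made with their values in view. All 4 belong to the 18 measured genes of the hair bundle, transduction, Usher, synapse and sorting roles. Old replicate 2 was the highest old array for 10 of the 18, and their median gap was 0.11. In the same roles Myo7a had a gap of 0.49, Tmc1 0.13, Cdh23 0.03, Gipc3 -0.01 and Myo3a -0.04. A further Pcdh15 probe set had 4.03, 4.99 and 4.33 in old tissue, and another had 4.61, 4.43 and 4.43. Without old replicate 2, the differences were 0.17 ± 0.14 for Lhfpl5, -0.09 ± 0.12 for Otof, 0.23 ± 0.13 for Strc and 0.24 ± 0.21 for Pcdh15. The young replicate 1 array in turn held the lowest signal for 15 of the 34 genes, and the share over all genes was not counted. Its median at 1 probe set per gene was 7.51, against 7.57 to 7.67 on the other arrays.

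Several markers of neighbouring cell types also had their highest old value on old replicate 2. The mean of 15 organ of Corti supporting cell markers was 7.49 on old replicate 2, 7.07 and 7.27 on the other old arrays, and 7.02 to 7.11 on young arrays. The mean of the 12 hair cell markers was 6.50 there, 6.21 and 6.25 on the other old arrays, and 6.15 to 6.34 on young arrays. Of the 3 old arrays, old replicate 2 was the highest for 11 of the 15 supporting cell markers and for 7 of the 12 hair cell markers. Sox2, a supporting cell factor, had 6.04, 7.36 and 6.88 in old and 5.38, 6.26 and 6.12 in young tissue. Among the hair cell markers, the widest gaps were those of Gfi1, a hair cell factor, with 4.42, 5.71 and 4.96 in old and 4.33, 4.96 and 4.70 in young tissue, and Calb2, with 7.11, 8.30 and 7.17 in old and 8.09, 7.71 and 7.69 in young tissue. Atoh1, Tmc2 and Fbxo2 had their lowest old value on that array, at 4.34, 4.61 and 13.33. The mean of 10 neuron markers was 6.29 on old replicate 2 and 6.37 on young replicate 1, against 5.58 to 6.01 on the other 4 arrays, and Snap25, a synaptic fusion protein, had 7.24 and 7.14 on those 2 arrays. The pattern was not limited to these lists. Old replicate 2 was the highest old array for 7 of 8 bone markers, with list means of 7.17, 7.69 and 6.86 in old tissue. It was so for 7 of 8 neutrophil markers, with 6.80, 7.13 and 6.41. The count was 3 of 6 for Schwann cell, 7 of 20 for stria and spiral ligament, 3 of 10 for macrophage and 0 of 10 for skeletal muscle markers. The part of any of these cell types in the values of Lhfpl5, Otof, Strc and Pcdh15 was not tested.

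**Figure D4:**
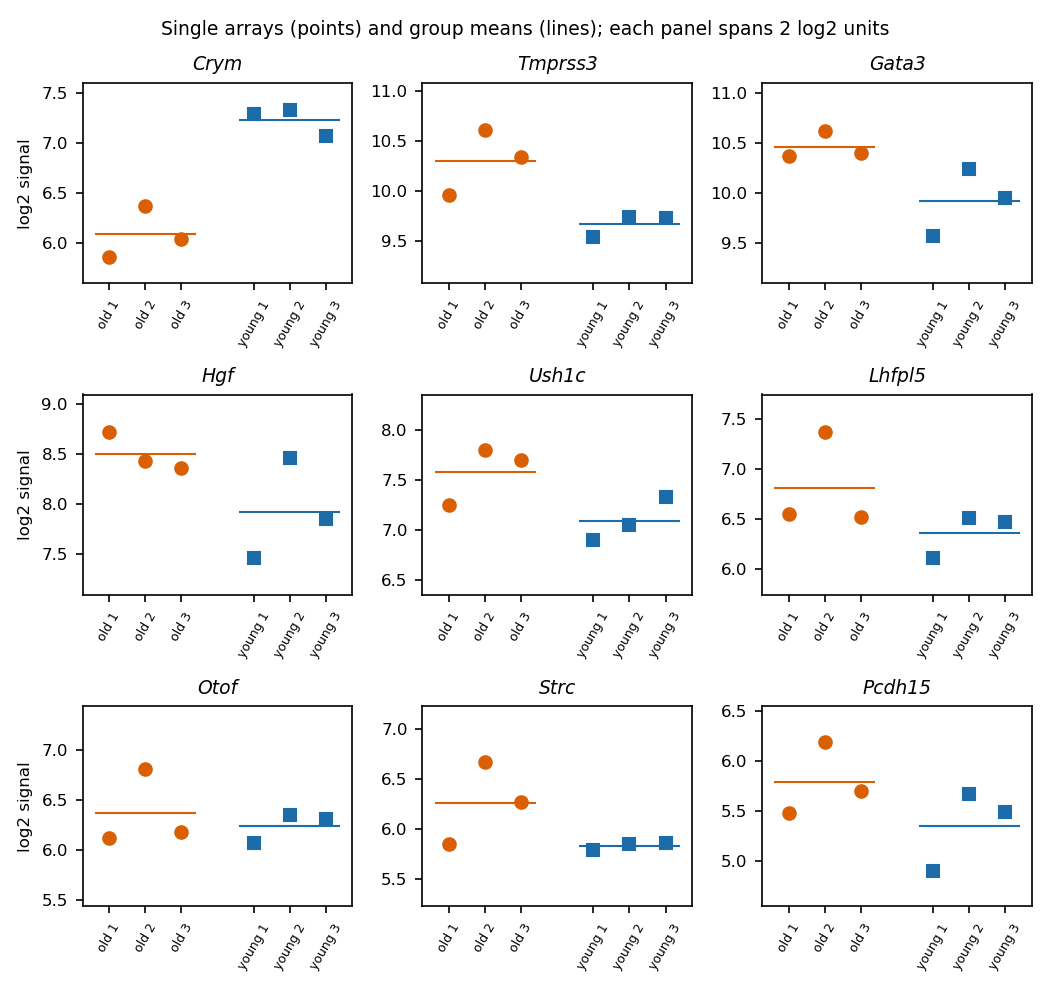
Log2 signal by array (vertical axis, the same span in each panel) for 9 deafness genes, old arrays as orange circles to the left of young arrays as blue squares, with lines at group means. Old replicate 2 is the highest point for Lhfpl5 (7.37), Otof (6.81), Strc (6.67) and Pcdh15 (6.19). It is also the highest for Tmprss3 (10.61), Gata3 (10.62) and Ush1c (7.80). Old and young points do not overlap for Crym, Tmprss3, Gata3 and Lhfpl5.

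**Figure D5:**
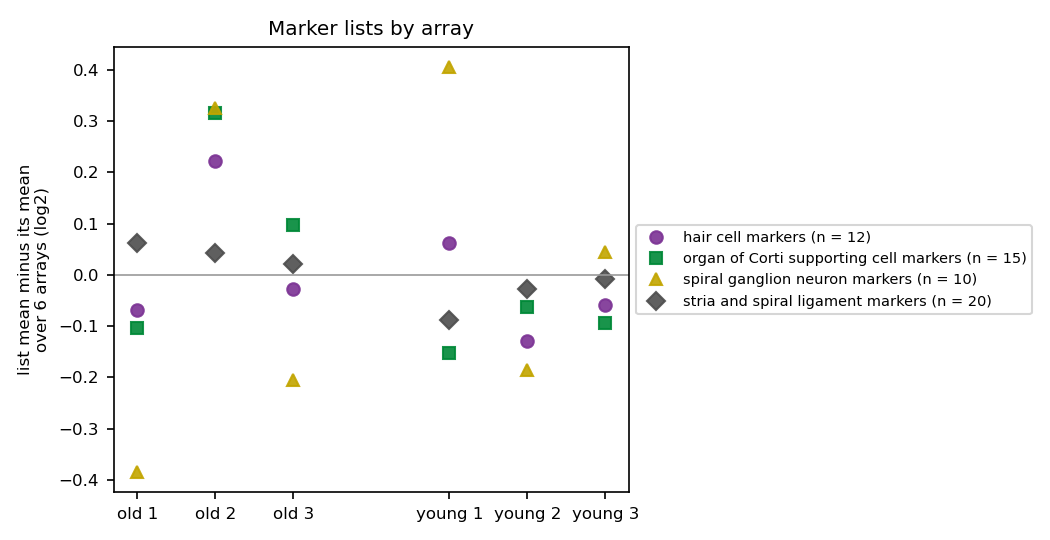
Mean log2 signal of 4 marker lists on each array, as the deviation from the list's mean over the 6 arrays (vertical axis), with old arrays left of young arrays and 1 symbol per list. The hair cell, supporting cell and neuron lists are raised on old replicate 2, the neuron list also on young replicate 1, and the stria and ligament list varies least.

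A further list of deafness genes, drawn up with results of these data known, was tested in the same fit. Of 62 measured genes on a list of 77, 4 were lower and 2 higher in old tissue (9.68%, against 4.78% of all genes), with a median difference of -0.01. Col11a1, a fibrillar collagen chain, had 9.03, 9.02 and 8.97 in old against 10.47, 10.14 and 10.29 in young tissue (difference -1.29 ± 0.10, limma adjusted p = 0.000990). Col4a3, a basement membrane collagen chain mutated in Alport syndrome, averaged 6.17 ± 0.33 in old and 7.03 ± 0.24 in young tissue (limma adjusted p = 0.0323). Otog, a component of the acellular membranes of the inner ear, rose to 9.13 ± 0.60 in old tissue, against 8.04 ± 0.15 in young tissue (limma adjusted p = 0.0470), and was highest on old replicate 2 at 9.67. It passed on leaving out old replicate 1 and on leaving out no other array, with 0.83 ± 0.20 without old replicate 2 (limma adjusted p = 0.0859). Sox10, a melanocyte and glial factor, averaged 11.60 ± 0.02 in old and 11.22 ± 0.10 in young tissue (limma adjusted p = 0.0382). The call of Sox10 held on leaving out young replicate 2 and was lost on leaving out any other array and when its probe sets were averaged (0.17 ± 0.06, limma adjusted p = 0.175), and that of Col4a3 was lost on leaving out each of the 6. Over the list, 1 gene passed without old replicate 2, old replicate 3 or young replicate 3, 2 without old replicate 1 or young replicate 1, and 8 without young replicate 2. Col11a1 passed each time.

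Relatives and partners of the 38 genes were counted too. Of 30 measured, 4 were higher and 1 lower in old tissue, with a median difference of 0.05 (16.7% passed, against 4.78% of all genes). The list was drawn up with results of these data known. Gipc2, a relative of Gipc3, had 8.85, 8.87 and 8.78 in old against 7.54, 7.89 and 7.67 in young tissue, a difference of 1.13 ± 0.10 (limma adjusted p = 0.00181) that passed under all 15 alternatives. Serpinb6b, a near relative of Serpinb6a, averaged 5.24 ± 0.03 in old and 4.77 ± 0.14 in young tissue (limma adjusted p = 0.0287), below the array median on all arrays. Ezr, the ezrin relative of radixin, averaged 10.38 ± 0.11 in old and 10.80 ± 0.05 in young tissue (limma adjusted p = 0.0319), while Rdx itself differed by 0.04 ± 0.07. The calls of Serpinb6b and Ezr were lost on leaving out any array except young replicate 2, and that of Ezr also when its probe sets were averaged (-0.23 ± 0.07, limma adjusted p = 0.114). The other 2 that passed upward were Tmprss2 and Marveld3.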

How the data were processed

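Total RNA of microdissected cochlear lateral wall was converted to biotin-labelled cRNA with a 3′ IVT kit and hybridised to 1 array per sample, per the labels' protocols. Expression Console from Affymetrix is listed in the submitters' processing notes beside RMA and MAS5, with roles and versions not given in the sources used here. The authors deposited log2 values for 45101 probe sets on 6 arrays, from 2.66 to 14.76. Scanner files and detection calls were not used here, and shared scaling removes a shift common to most genes. With 3 arrays per age, their small number sets the precision.

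After 64 control probe sets were left out, limma 3.58.1 in R 4.3.3 was fitted over 45037 probe sets on age alone. Benjamini-Hochberg adjustment covered all these probe sets, and a gene passed at an adjusted p under 0.05. Gene symbols came from the platform annotation, with 932 probe sets of several symbols and 9160 unlisted ones left unnamed. The genes and lists were chosen with earlier results of these data known. Full array values are given for genes that passed, the 8 with the highest mean and the 4 with the largest differences among those that did not pass and lay above the median; of other lists, up to 2 genes per direction are named, or the 2 with the smallest p, and further genes were named after their values were seen. Alternatives were other normalizations, a filter on dim probe sets, other variance models, array weights, a replicate block, other probe set rules, a stricter threshold and leaving out each array. Promoter windows came from RefSeq, 31 of 38 genes matched, and every window was read as the gene's own strand. In the remaining marker lists limma found 0 of 10 skeletal muscle markers past the threshold (1 at an unadjusted p under 0.05, Mylpf, with Myh4 next). Of 10 neuron markers, 0 passed (4 at an unadjusted limma p under 0.05, with Map2 and Stmn2 first). Otog was the 1 of 15 supporting cell markers that passed. In old tissue 2 of 6 Schwann cell markers (Ncmap, Pmp22), 3 of 8 bone markers (first Dmp1 and Phex) and 7 of 8 neutrophil markers (first Mpo and Ngp) were lower, and 2 of 10 macrophage markers (Lyz2, Cd68) higher.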

Additional observations from a re-analysis of the deposited data

How the results depend on the processing

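Of the 34 deafness genes, 1 passed, and this count was 2 with median centring, with the filter on dim probe sets and with an intensity trend and robust variance, and 3 with array weights. It ran from 1 to 3 when single arrays were left out. With median centring, the filter and the intensity trend the added gene was Tmprss3, joined by Gata3 with array weights. Leaving out old replicate 1 also added Tmprss3, and leaving out young replicate 2 added Gata3 and Hgf. In 500 refits of single genes, 10 gained a call and 0 turned the sign of one. Another 25 changed the sign of a difference that did not pass either way. These include refits of Eya1, whose difference in the main fit was 0.00 and so had no sign to change. Only Crym had a call in the main fit to lose, and it kept that call in all 15 of its refits. Of 62 other deafness genes, 6 passed, and the count was 10 with an intensity trend and robust variance, 10 with array weights, 1 at an adjusted p of 0.01 and 1 to 8 when single arrays were left out. The causes were not tested. The count of genes above the array median, 21, ran from 17 to 25 over its alternatives. The labels give both ages replicates 1 to 3. Deviations from the group means of same-numbered samples correlated at 0.19, 0.13 and 0.00 across genes, and those of differently numbered samples at -0.17 to 0.07. These values do not settle whether the numbers pair the samples, and the main fit took them as unpaired. With the replicate block, 3 of the 34 genes and 3 of the 62 others passed, without Sox10 (limma adjusted p = 0.0556). Signal over background was not examined, which limits what can be said of genes below the array median.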
